A study of Mus musculus with 12 samples.

Results

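Of the 14941 MBD2 peaks called on chromosomes 1 to 19 and X in undifferentiated C2C12 myoblasts, 4579 (30.6%) lay inside introns, away from promoters and from any H3K4me3 peak of the same cells. A peak was counted here when it touched neither the 1 kb on either side of any annotated transcript start nor a day 0 H3K4me3 peak, and when its summit fell in a gene body but in no exon. These intronic MBD2 peaks were thus chosen by the deposited MBD2 and H3K4me3 peak positions at day 0, so their position and day 0 state are a description only. The other day 0 MBD2 peaks comprised 4204 intergenic peaks lacking H3K4me3, 2459 promoter peaks with it, 1691 intronic peaks with it, 1171 intergenic peaks with it, 507 promoter peaks lacking it, and 233 exonic peaks lacking and 97 carrying it.

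MBD2 belongs to the methyl-CpG binding domain family of proteins. It recognises methylated CpG dinucleotides and recruits the NuRD complex, which combines histone deacetylase and nucleosome remodelling activities. H3K4me3 is the trimethylated form of lysine 4 of histone H3 and is deposited mainly around active transcription start sites, while introns hold many of the enhancers that act on their own or on neighbouring genes. AP-1, made of Jun and Fos family proteins, is a DNA-binding factor of growing cells and is typical of such distal elements, and MyoD is the E-box binding factor that drives muscle differentiation.

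C2C12 is a mouse myoblast line that withdraws from the cell cycle and fuses into multinucleated myotubes in low serum, here medium with 2% horse serum. In CUT&RUN, antibodies bound in permeabilised cells guide a nuclease that cuts out the DNA around them for sequencing. It was run for MBD2, H3K4me3 and a negative control IgG in cells at day 0, at day 1, and in the day 5 myotubes and day 5 reserve cells, which stay mononucleated. Both day 5 fractions are abbreviated in the titles and were matched by initials to the myotubes and reserve cells that the design text describes, parted from each other with trypsin. Each of the 12 samples is 1 library, no genotype or drug differs between them, and the 4 IgG libraries were not analysed here. Without replicates no difference between cell states has a replicate check, no p-value is given, and the 95% intervals (exact Clopper-Pearson) cover counting error only.

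At day 0 the labelled cell type matched its markers at the promoter level. Promoters of 6 of 6 myoblast genes, among them Myod1 and Pax7, carried H3K4me3 at day 0, while 0 of 8 differentiation genes such as Myog carried it at day 0. By day 1 and in myotubes all 8 did, and reserve cells had 7. The 6 myoblast genes were marked in every library, so these markers hardly parted reserve cells from myotubes. Of the markers of other cells, 3 of 6 fibroblast, 2 of 4 adipocyte and 2 of 4 neuron genes were marked at day 0. Promoters of the 4 blood and 3 liver genes were unmarked in all libraries except for Cd68 in myotubes. The lists differed greatly in size and strength. In the order day 0, day 1, myotubes and reserve cells, MBD2 lists held 14941, 452, 287 and 111 peaks and H3K4me3 lists 19206, 17653, 26024 and 15910. The myotube H3K4me3 peaks had a median fold enrichment of 9.55, and the medians of the other H3K4me3 lists were 29.1 to 39.9. The lists give no read totals, so values from different lists are set side by side and their differences show no change in signal.

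The intronic MBD2 peaks were short and shallow. Their median length was 364 bp (201 to 3157 bp) and their median fold enrichment, as deposited by the authors, was 5.74, with 4.41 and 7.35 as quartiles and 2.89 and 36.8 as extremes. The median pileup, the number of fragments over a summit, was 7, so a typical peak rested on few fragments. Fold enrichment was read as (pileup + 1)/(local background + 1), and with a median background of 0.360 fragments the added 1 holds these values well below the plain ratio of pileup to background. Peaks just inside the limits resembled peaks just outside them. The 25 peaks within 100 bp of a promoter window had a median fold enrichment of 5.88, and the 30 peaks without H3K4me3 that reached at most 100 bp into such a window had 5.59. The 55 peaks within 100 bp of a day 0 H3K4me3 peak had 6.62, and the 77 intronic peaks that overlapped one by at most 100 bp had 5.88.

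Sequences around 4 summits show the range of DNA under these peaks (mm10, + strand, 100 bases on either side of the summit). Rcan2 is among the 4 peaks of highest fold enrichment, and the other 3 MBD2 peaks overlapped strong myotube H3K4me3. At Atp13a3 that H3K4me3 peak ended at position 30390671, short of the MBD2 summit at 30390726. Capitals mark CG, CAGCTG, and TGAGTCA or TGACTCA.
Rcan2, intron 4, chr17:44035079-44035279: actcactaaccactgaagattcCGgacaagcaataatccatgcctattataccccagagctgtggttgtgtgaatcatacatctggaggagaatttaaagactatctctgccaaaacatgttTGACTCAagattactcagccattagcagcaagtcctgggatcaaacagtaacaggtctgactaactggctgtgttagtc
Atp13a3, chr16:30390626-30390826: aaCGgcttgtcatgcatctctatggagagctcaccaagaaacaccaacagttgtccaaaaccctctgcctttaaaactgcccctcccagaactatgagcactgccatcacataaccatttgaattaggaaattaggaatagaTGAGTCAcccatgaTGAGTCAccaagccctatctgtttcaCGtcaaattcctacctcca
Ablim1, intron 1, chr19:57189434-57189634: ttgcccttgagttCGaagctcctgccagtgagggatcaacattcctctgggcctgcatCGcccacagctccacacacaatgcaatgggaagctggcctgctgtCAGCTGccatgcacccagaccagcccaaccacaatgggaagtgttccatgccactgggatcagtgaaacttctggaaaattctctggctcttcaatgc
Mtss1, intron 1, chr15:59075854-59076054: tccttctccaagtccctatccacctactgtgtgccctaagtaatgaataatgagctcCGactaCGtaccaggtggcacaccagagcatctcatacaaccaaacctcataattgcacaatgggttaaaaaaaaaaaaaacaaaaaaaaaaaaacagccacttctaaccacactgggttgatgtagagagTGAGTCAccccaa
The Atp13a3 window held 2 AP-1 elements (TGAGTCA or its complement TGACTCA), and those of Rcan2 and Mtss1 held 1 each. Ablim1 had a CAGCTG E-box, the form preferred by MyoD.

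AP-1 elements were the sequence feature that most set these summits apart from the surrounding introns. TGAGTCA or TGACTCA, searched on both strands, occurred in 21.9% of the 4579 windows of 201 bases (20.7 to 23.1%). It occurred in 3.78% of windows of the same length placed 2 kb to either side of the same summits (3.40 to 4.19%) and in 3.25% of 283995 windows tiled over introns free of promoters and of day 0 H3K4me3. Intergenic MBD2 peaks lacking H3K4me3 had a share of 22.3% (21.1 to 23.6%) and intronic MBD2 peaks with H3K4me3 17.0% (15.3 to 18.9%), while promoter MBD2 peaks with H3K4me3 had 5.45% (4.59 to 6.42%). The intergenic and intronic shares without H3K4me3 thus lay within each other's counting error. The share at promoter peaks with H3K4me3 lay far below both, but promoter MBD2 peaks lacking H3K4me3 had 16.0% (12.9 to 19.5%). Among intronic peaks ranked by −log10 q in 5 equal groups, the share was 17.3% in the weakest group and 24.8% in the strongest.

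**Figure D1:**
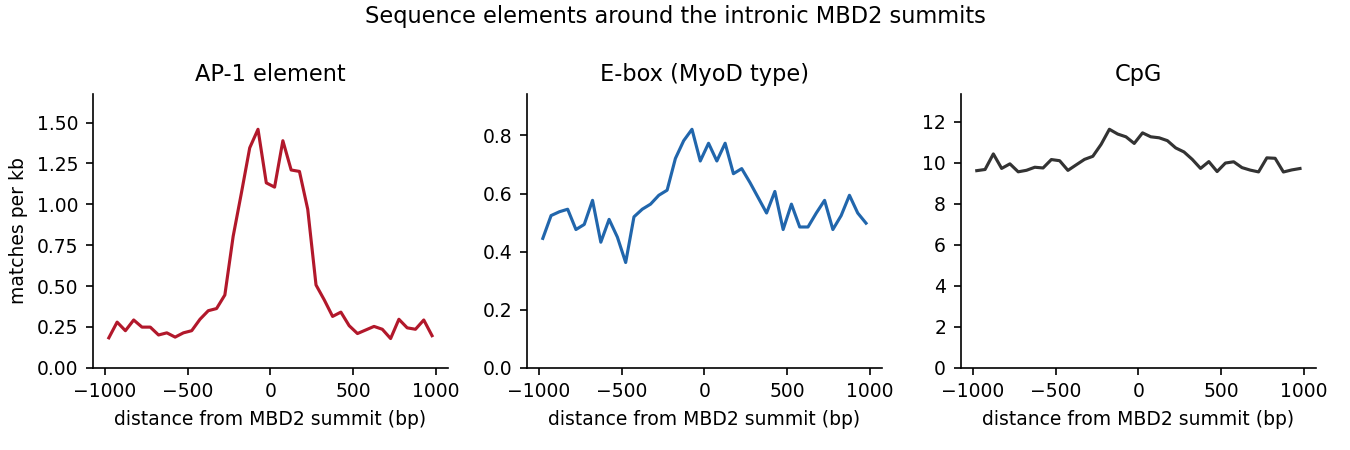
Matches per kb (vertical axes, from 0) of the AP-1 element, the MyoD-type E-box and CpG in bins of 50 bp, against distance in bp from the summits of the 4579 intronic MBD2 peaks. The AP-1 density reached 1.46 per kb 75 bp to the left of the summit against 0.183 per kb at the left end, whereas CpG stayed between about 9 and 12 per kb throughout.

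The AP-1 matches crowded around the summits on both flanks. Their density was 1.46 per kb in the bin centred 75 bp to the left of the summit and 1.39 per kb 75 bp to the right, and it was 1.13 and 1.11 per kb in the bins next to the summit itself. At the ends of the plotted range it was 0.183 and 0.197 per kb. The matches were therefore denser 50 to 100 bp to either side than next to the summit, with 334 and 318 matches against 259 and 253, and rare 1 kb away.

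Another 3 elements known from factors of muscle cells occurred more often at the summits, by smaller margins. CAGCTG, the MyoD-type E-box, was present in 12.9% (11.9 to 13.9%) of the windows, against 9.05% of the shifted and 7.64% of the tiled windows. TGTGGT, the core bound by RUNX factors, was present in 24.9%, 15.7% and 14.5% in the same order. GGAATG, bound by TEAD factors, the DNA-binding partners of YAP, was present in 15.7%, 11.6% and 10.6%. The general E-box CANNTG, which contains CAGCTG and CACGTG, did not differ in the same way, with 66.6%, 67.8% and 66.3%. CCGGAA, an ETS core, stood at 1.94%, 1.88% and 1.45%. It was in 12.7% of promoter MBD2 peaks with H3K4me3 and in 1.78% of those lacking it. GATAA was in 31.3%, 27.2% and 29.7%, CACGTG in 1.97%, 2.44% and 2.11%, and TATAAA in 15%, 15.9% and 18.7%. A match describes the letters only and shows no binding.

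CpG, the dinucleotide that MBD2 recognises when methylated, was only slightly denser at the intronic summits than nearby. The windows held a mean of 2.25 CpG, against 2.0 in the shifted and 1.65 in the tiled windows. The mean was 10.2 at promoter MBD2 peaks with H3K4me3 and 2.75 at those lacking it. No CpG was found in 17.8% of the intronic windows, in 22.4% of the shifted and in 28.1% of the tiled ones. Median GC content was 44.3%, 44.3% and 42.3%. No DNA methylation data were used here. Bases marked as repeats in the reference made up 15.1% of the summit windows on average and 29.8% of the tiled windows, and no source used here says how reads with several alignments were treated. Windows made of a tandem repeat with a period up to 60 bases and at least 90% self-identity numbered 21 (0.459%), against 0.116% of tiled windows.

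The peaks were spread over many long genes, most with 1 peak each. They lay in 2710 genes of the GENCODE M21 basic set, 2142 of them protein-coding, 344 lincRNA and 114 antisense genes, and 256 peaks (5.59%) fell in more than 1 gene. The protein-coding hosts were 9.85% of 21755 protein-coding genes and held 3885 peaks (84.8%). Their median length was 102 kb against 17.4 kb for all protein-coding genes. A single peak was found in 1326 of them (61.9%), 2 peaks in 418, 3 or 4 in 258, 5 to 9 in 123 and 10 or more in 17. The 140 hosts with at least 5 peaks held 949 peaks (20.7%).

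The hosts with most peaks were long genes of varied function. Pde4d, a cyclic AMP phosphodiesterase of chromosome 13, held 24 peaks along 1504 kb, with fold enrichments of 3.68 to 27.2. Ltbp1, which tethers latent TGF-beta in the matrix, held 16 along 387 kb (fold enrichment 3.91 to 11.8). Runx2, the RUNX factor that directs bone formation, held 14 along 319 kb (3.68 to 10.3). Lrmda held 14 (1036 kb), Bcar3, an adaptor in integrin signalling, 12 (236 kb), Lpp, a LIM protein of focal adhesions, 12 (599 kb), Rad51b, a recombination factor, 11 (517 kb), Ptprm, a receptor tyrosine phosphatase, 11 (688 kb), and the lincRNA Pvt1 11 (340 kb). Of the 10, Lrmda alone had no H3K4me3 at its promoter in any of the 4 libraries.

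Some counts depended on the gene model. Fgfr2, a fibroblast growth factor receptor, held 16 peaks in the GENCODE span of 2961 kb, which contains 29 other protein-coding genes, but only 1 in the RefSeq span of 104 kb on the same assembly. In the RefSeq spans Bcar3 held 6 peaks, Pvt1 6, Pde4d 22 and Nfib, a nuclear factor I gene, 1 in place of 5. Rbpj, the DNA-binding factor of Notch signalling, and Nefm, a neurofilament gene, held 0 in their RefSeq spans in place of 3 and 1. The largest count of all, 36, belonged to the predicted gene model Gm20388, which spans 4435 kb and was passed over.

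Per length, short genes with several peaks came first. Among protein-coding genes with at least 3 peaks, Aknad1 had 11.7 peaks per 100 kb of gene body (5 peaks in 42.7 kb). Dpt, which encodes the matrix protein dermatopontin, had 10.9, the serine protease Htra3 10.8, the anion channel Best3 10.3, the guanylate cyclase Gucy2g 9.27, the tryptophan-degrading dioxygenase Ido2 9.0, and Col1a2, the type I collagen chain of fibroblasts and bone, 8.17. Slc6a17, Tnk2 and Syt13 followed with 7.92, 7.57 and 7.32. The promoters of Dpt, Gucy2g and Ido2 lacked H3K4me3 in all 4 libraries, and those of Aknad1 and Best3 lacked it at day 0 and carried it in myotubes.

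Hosts more often had an H3K4me3-marked promoter at day 0 than other genes of similar length, once genes exceeded 30 kb. The background is that 57% of all protein-coding genes were marked. Of the 2142 hosts 1666 were marked (77.8%, 76.0 to 79.5%), and of the 19613 genes without such a peak 54.7% were. From 100 to 300 kb the shares were 83.8% of hosts and 61.7% of the others, over 300 kb 73.8% and 32.0%, and from 10 to 30 kb 61.4% and 63.3%. Read the other way, 48.8% (46.1 to 51.5%) of marked genes of 100 to 300 kb hosted a peak, against 22.8% (19.4 to 26.5%) of unmarked ones. MBD2 itself was found at the promoter of 17.7% of hosts and of 10.5% of the other genes.

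**Figure D2:**
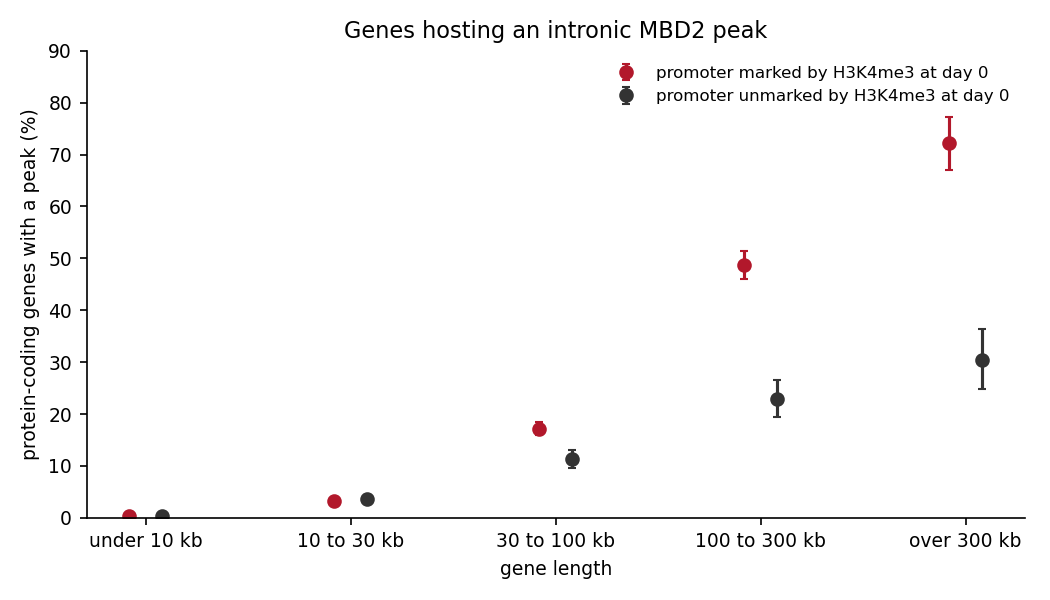
Share of protein-coding genes that hosted at least 1 intronic MBD2 peak lacking H3K4me3 (vertical axis, %), by gene length and by promoter H3K4me3 at day 0. Points are shares and bars exact 95% intervals, and the marked genes lay above the unmarked ones from 30 kb upwards (48.8% against 22.8% at 100 to 300 kb) but not below.

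Density within introns followed the same order. Per Mb of tiled intronic windows there were 5.60 peaks in hosts with a marked promoter, 2.18 in genes with an unmarked one, 7.74 in genes with MBD2 at the promoter and 4.82 outside protein-coding genes. Density also fell with distance from the nearest day 0 H3K4me3 peak, from 12.4 per Mb within 1 kb to 7.44 at 1 to 5 kb and 2.09 beyond 100 kb. The median distance was 30.5 kb for the peaks and 62.7 kb for tiled windows. Distance to the nearest transcript start separated them little, with medians of 18.8 and 19.5 kb. The first intron held 27.6% of 3702 peaks placed in an intron of their host's longest transcript, and 24.1% of the tiled windows. The peaks lay a median 37.0 kb from the next such peak, and 983 (21.5%) had another within 5 kb. On chromosome X there were 51 peaks, 1.12 per Mb of windows, against 2.89 (chromosome 7) to 7.44 (chromosome 15) on the autosomes.

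The 18 gene lists differed in how densely they were covered. The lists were chosen with earlier results of these data known and carry no test, so their counts are set beside the whole set of protein-coding genes, with 3.63 peaks per Mb of gene body and 9.85% hosts. Genes of the actin cytoskeleton and adhesion had 26 of 47 hosts and 12.7 peaks per Mb, at a median length of 82.5 kb. Ptk2, the focal adhesion kinase, held 2 with a highest fold enrichment of 20.6, Palld, an actin bundler of stress fibres, 4 (20.6) and Tln2, which links integrins to actin, 1 (19.9).

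The next lists given ranged from 7.83 to 18.5 peaks per Mb, and the Notch and Wnt lists lay lower, at 5.58 and 6.20. The list of TGF-beta, BMP and Hippo genes had 12 of 36 hosts and 13.4 peaks per Mb, 16 of its 37 peaks in Ltbp1. Ltbp2 held 1 (fold enrichment 12.5), and the activin and BMP receptors Acvr2a and Acvr1 held 1 (8.82) and 4 (highest 7.35). Matrix and fibroblast genes had 12 of 37 hosts and 14.2 per Mb, with Fbn1 (fibrillin, 4 peaks, highest 17.6), Col4a1 (2, 11.0), Twist2 (1, 9.56) and Col5a1 (3, 8.09). Growth factor receptors and signalling genes had 18 of 36 hosts and 7.83 per Mb. Their strongest were the semaphorin and VEGF co-receptors Nrp1 (3 peaks, highest 24.3) and Nrp2 (3, 11.0), Igf2bp2 (5, 11.8) and Sema3a (4, 11.5). The list of AP-1 and RUNX factors, which also held nuclear factor I genes, had 7 of 25 hosts and the highest density, 18.5 per Mb. Of its 35 peaks, 14 lay in Runx2, 8 in Runx1 (5.02 to 11.0), 5 in Nfib and 3 in Nfix (highest 5.79). The density thus rested mostly on RUNX and nuclear factor I genes and not on AP-1 genes.

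Muscle genes were covered unevenly. Myogenic regulators had 7 of 24 hosts and 7.56 peaks per Mb, 8 of the 17 peaks in Eya4, a coactivator of homeodomain factors, where fold enrichments ran from 4.30 to 10.8. Tcf12, an E-protein partner of MyoD, held 2, Mef2c 1 and Tead1 3. Sarcomere and contraction genes had 10 of 50 hosts and 6.19 per Mb, with Myom2 (1 peak, 11.0), Fhod3 (7, highest 11.0), the sarcoplasmic calcium binder Casq2 (3, 10) and Mylk (2, 7.17). Fusion and membrane repair genes had 11 of 22 hosts and 6.26 per Mb, at a median length of 91.3 kb. Among them were the cadherin Cdh2 (1 peak, 26.5), Ncam1 (3, highest 14.3), Tmem182 (3, 14.0) and Myof (3, 8.61). Dystrophin complex and laminin receptor genes had 9 of 20, with Sspn (2, highest 20.8), Utrn (6, 20.6) and Dtna (1, 11.5). These genes were long, with a median of 114 kb, and their 4.32 peaks per Mb lay near the 3.63 of all protein-coding genes.

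Among the remaining lists, Notch genes had 4 of 20 hosts (Rbpj, Maml3, Maml2 and Notch2) and 5.58 peaks per Mb. Wnt genes had 8 of 33 (Tcf7l1, Dkk3, Znrf3 and Tcf7l2 the strongest) and 6.20 per Mb. Cell cycle genes had 3 of 37 (Rbl1, Rbl2 and Cdk6) and 3.86 per Mb. The list labelled DNA methylation and NuRD, which also held other chromatin genes, had 5 of 32 hosts. Among them were the DNA methyltransferase Dnmt3a (1 peak) and, from outside both groups, Hdac4 (4), Hdac7 (1) and Kdm2b (1). The density of this list, 3.02 per Mb, lay below that of all protein-coding genes and rested mostly on those other genes. Neuronal genes had 6 of 22 hosts but 1.13 peaks per Mb at a median length of 310 kb. Bone and cartilage genes had 3 of 14 and 10.3 peaks per Mb, with 21 peaks in Runx2, also counted with the RUNX factors, Sox5 and Col2a1. Adipocyte genes had 1 of 12 (Pparg, 3 peaks), and blood and liver genes 0 of 12 each. A count of 0 of 12 allows a share of up to 26.5%.

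**Figure D3:**
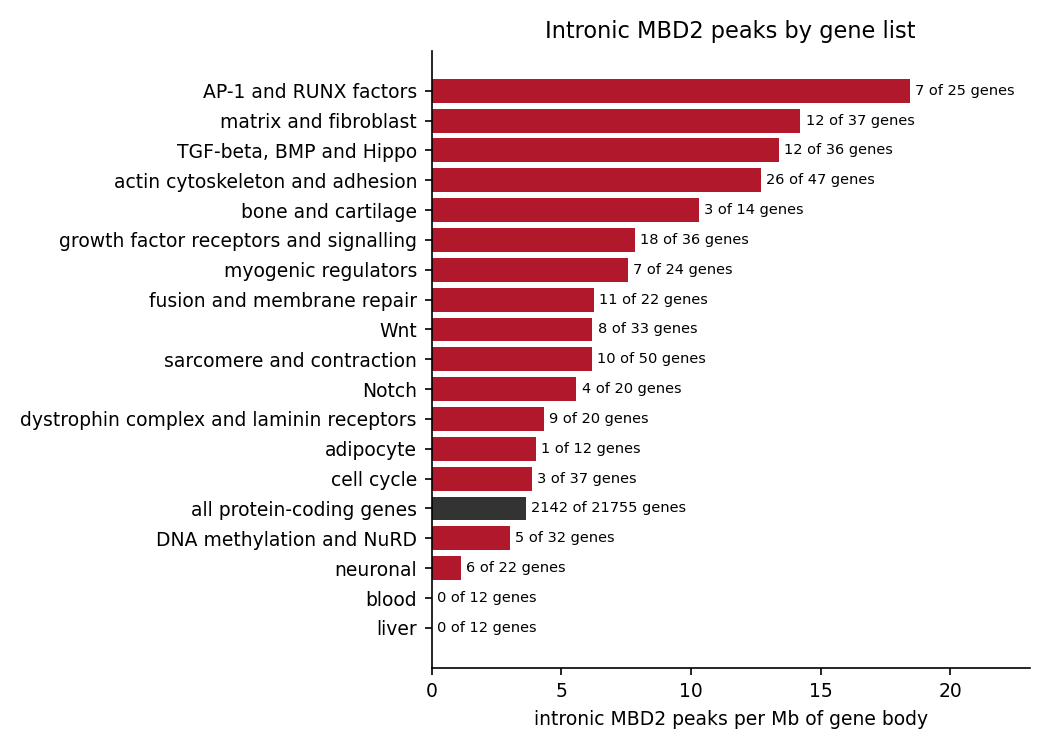
Intronic MBD2 peaks lacking H3K4me3 per Mb of gene body (horizontal axis, from 0) for 18 gene lists and, in black, all protein-coding genes, with the number of host genes beside each bar. The list of AP-1 and RUNX factors, which also holds nuclear factor I genes, stands at 18.5. All protein-coding genes stand at 3.63 and the blood and liver lists at 0.

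H3K4me3 peaks appeared over 583 of the 4579 intronic MBD2 peaks later in differentiation, mostly in myotubes, and 3996 (87.3%) had none in any later library. At day 1, 101 peaks (2.21%, 1.80 to 2.67%) lay under H3K4me3, against a background of 0.119% of 2846182 tiled intronic windows of 365 bp. In myotubes the count was 534 (11.7%, 10.7 to 12.6%), against 0.843% of the windows, and in reserve cells 29 (0.633%, 0.425 to 0.908%), against 0.0527%. The windows cover 1039 Mb of introns without promoters or day 0 H3K4me3. By bases instead of overlaps, 7.63% of the MBD2 peak sequence and 0.590% of the window sequence lay under myotube H3K4me3. The size of the myotube share depended on the many weak peaks of that list: with each H3K4me3 list reduced to its strongest 15910 peaks, the myotube share was 2.99% (137 peaks) against 0.452% of windows, and the day 1 share 0.895% against 0.0922%.

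**Figure D4:**
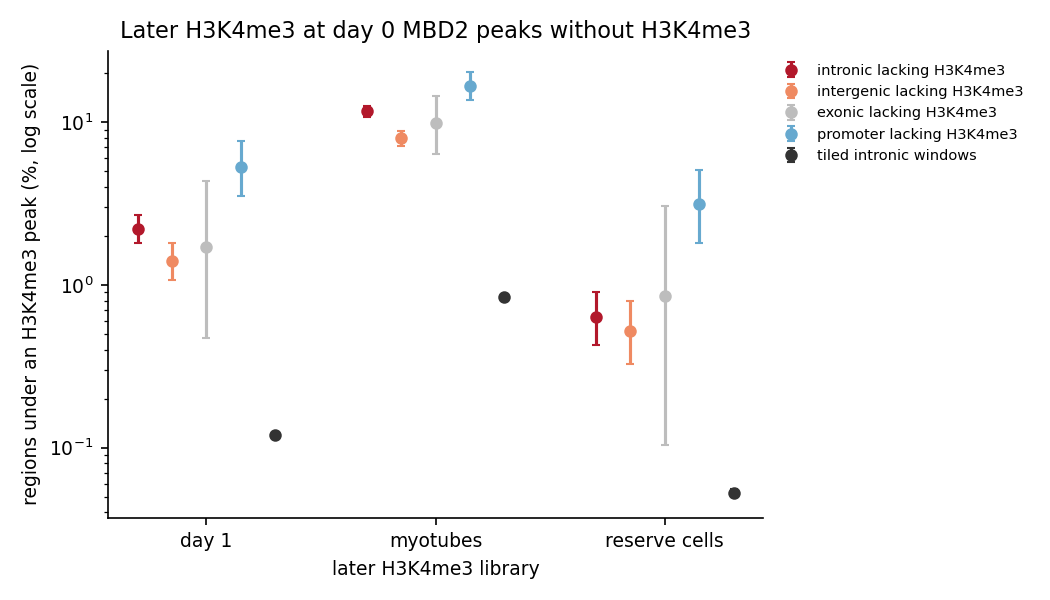
Share of day 0 MBD2 peaks lacking H3K4me3 that lay under an H3K4me3 peak of each later library (vertical axis, %, log scale), by position, with tiled intronic windows in black. Points are shares and bars exact 95% intervals, and intronic peaks stood at 2.21%, 11.7% and 0.633%, above the windows at 0.119%, 0.843% and 0.0527%.

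Intronic MBD2 peaks stood between intergenic and promoter peaks. Intergenic MBD2 peaks lacking H3K4me3 at day 0 lay under it in 1.40% (day 1), 7.94% (myotubes) and 0.52% (reserve cells), and promoter MBD2 peaks lacking it at 5.33%, 16.8% and 3.16%. The intronic and intergenic intervals did not overlap in myotubes and overlapped at day 1 (1.80 to 2.67% and 1.07 to 1.81%) and in reserve cells. Intronic MBD2 peaks that carried H3K4me3 at day 0 lay under it in 65.8%, 69.5% and 41.6%. Of the 583 peaks marked later, 468 were marked in myotubes alone, 52 at day 1 and in myotubes, 34 at day 1 alone, 11 in all 3 libraries and 11 in reserve cells alone.

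The later H3K4me3 over these introns was mostly short and weak. The 525 myotube peaks involved had a median length of 538.5 bp and a median fold enrichment of 4.95, against 1218 bp and 9.55 for the whole myotube list, and those at day 1 had 393 bp and 4.12 against 1870 bp and 38.6. Of the 534 marked sites in myotubes, 22 (4.12%) lay under a peak that reached a promoter window, 51 (9.55%) under a peak that touched a day 0 H3K4me3 peak, and 479 under neither. Seen from the H3K4me3 side, 477 of 5426 myotube peaks (8.79%, 8.05 to 9.58%) that were intronic, off promoters and off day 0 H3K4me3 held an intronic MBD2 peak of day 0, as did 85 of 576 at day 1 (14.8%) and 25 of 308 in reserve cells (8.12%).

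Nearness to existing H3K4me3 went with later marking, and the excess over windows was present at every distance. Within 1 kb of a day 0 H3K4me3 peak 24.5% of the MBD2 peaks lay under myotube H3K4me3, against 13.2% of windows. The shares were 19.6% and 3.22% at 1 to 5 kb, 15.3% and 1.17% at 5 to 20 kb, 11.2% and 0.656% at 20 to 50 kb, 7.92% and 0.336% at 50 to 100 kb, and 3.26% and 0.0817% beyond 100 kb. The ratio of the shares was thus smallest next to existing H3K4me3. By MBD2 strength, the myotube share was 10.2% (8.28 to 12.3%) in the weakest and 13.2% (11.1 to 15.6%) in the strongest of 5 equal groups by −log10 q, with overlapping intervals. The day 1 share was 1.09% (0.525 to 2.0%) in the weakest group, 1.53% in the next, and 3.06%, 2.62% and 2.73% in the 3 stronger ones.

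**Figure D5:**
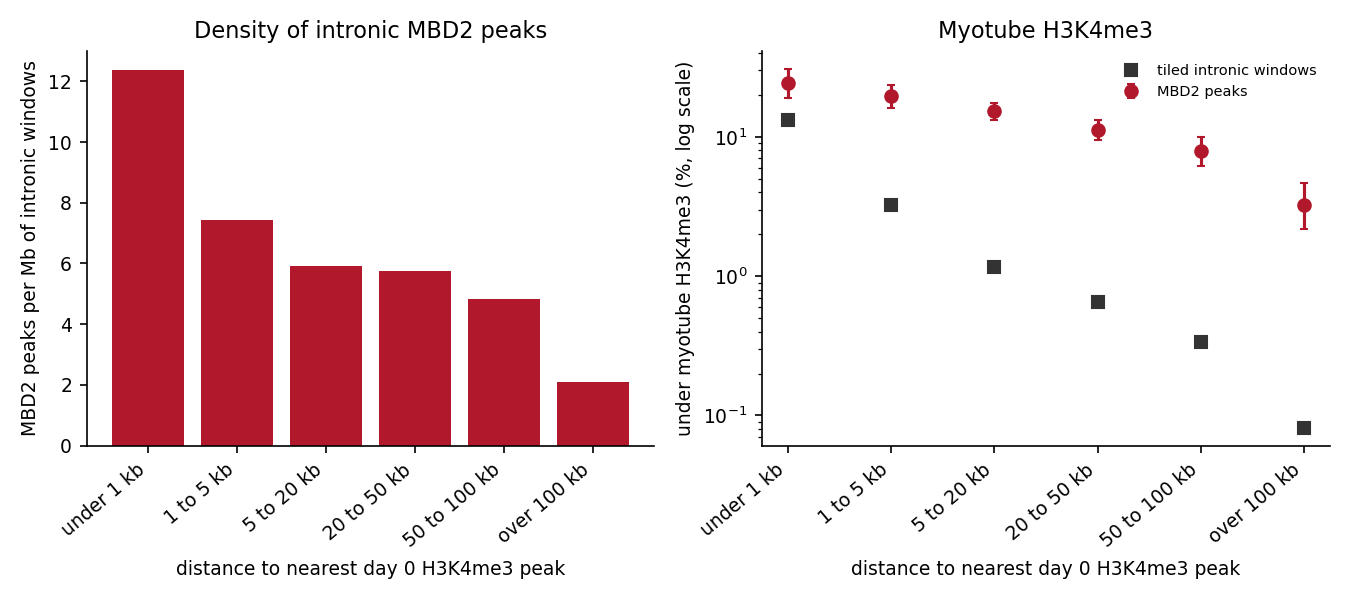
Left, intronic MBD2 peaks per Mb of tiled intronic windows (from 0), and right, share under myotube H3K4me3 (%, log scale) for MBD2 peaks with exact 95% intervals and for windows, by distance to the nearest day 0 H3K4me3 peak. Density fell from 12.4 to 2.09 per Mb, and the shares fell from 24.5% to 3.26% for MBD2 peaks and from 13.2% to 0.0817% for windows.

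Hosts without promoter H3K4me3 at day 0 carried it in myotubes more often than other genes did. Of 476 protein-coding hosts without promoter H3K4me3 at day 0, 55 carried it in myotubes (11.6%, 8.82 to 14.8%), against 453 of 8877 genes without an intronic peak (5.10%, 4.65 to 5.58%). Within genes of 30 to 100 kb these shares were 14.1% (9.16 to 20.4%) and 7.08% (5.74 to 8.62%), and within genes of 100 to 300 kb 11.7% (6.71 to 18.6%) and 7.16% (4.92 to 10%), where the intervals overlapped. At day 1, 15 hosts (3.15%, 1.77 to 5.14%) gained it against 1.68% (1.42 to 1.97%) of the others, so the intervals overlapped. By length the day 1 shares of hosts and others were 4.76% and 1.09% under 10 kb and 2.35% and 2.37% at 10 to 30 kb. They were 1.23% and 2.10% at 30 to 100 kb, 4.69% and 3.70% at 100 to 300 kb, and 5.06% and 0.552% above. In reserve cells 20 hosts (4.20%, 2.59 to 6.41%) gained it against 1.26% (1.04 to 1.52%) of the others. Among intronic peaks whose longest host gained promoter H3K4me3 in myotubes, 16 of 100 (9.43 to 24.7%) lay under myotube H3K4me3, against 8.27% (6.22 to 10.7%) where the promoter stayed unmarked and 13.2% (12 to 14.5%) where it was marked in both. The tiled windows of the same gene classes had shares of 2.63%, 0.176% and 1.32%, so relative to windows the order was the reverse, with the smallest excess where the host promoter gained H3K4me3 and the largest where it stayed unmarked. None of those 16 lay under a peak that reached a promoter window. In the first intron 16.1% of peaks lay under myotube H3K4me3, in the second 12% and in later ones 10.6%.

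The peaks that gained H3K4me3 in myotubes differed from the others in E-boxes, CpG and GC content, and not in AP-1 elements. CAGCTG was present in 16.9% (13.8 to 20.3%) of the 534 windows marked in myotubes and in 12.3% (11.3 to 13.4%) of the rest. It was present in 22.8% (15 to 32.2%) of the 101 marked at day 1. AP-1 elements were present in 22.1% (18.6 to 25.9%) and 21.9% (20.6 to 23.2%) of windows marked and unmarked in myotubes and in 15.8% (9.33 to 24.4%) of those marked at day 1. Median GC content was 47.5% in windows marked in myotubes and 44.3% in the rest.

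The strongest myotube H3K4me3 peaks over intronic MBD2 sites were broad peaks that ran from a promoter into the first part of the gene. They lay over N4bp1 (fold enrichment 70.3, 4827 bp), Plpp1, a lipid phosphatase (59.4, 4348 bp), Ablim1, an actin-binding LIM protein of striated muscle (54.7, 13081 bp), Atp13a3 (54.0, 7258 bp), the lysosomal hexosaminidase Hexa (52.6, 7146 bp) and Mtss1, a membrane-bending actin regulator (51.4, 8512 bp). All 6 reached a promoter window and touched a day 0 H3K4me3 peak, which lay between 46 and 4560 bp from the MBD2 peak. Ablim1 and Hexa also had short peaks at day 1 (238 bp, fold enrichment 3.99, and 317 bp, 3.55). Of the 6 MBD2 peaks themselves, Hexa was the strongest with a fold enrichment of 14.0, and N4bp1 the weakest with 3.66.

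At day 1 the strongest H3K4me3 lay over Adamts6 (101, 7017 bp) and Atp13a3 (74.5, 4942 bp), both reaching a promoter. Far weaker were Trp53cor1 (11.0), Htra3 (9.76), Gramd1b (9.31) and Mcc (7.54), and Mcc alone among the 6 touched no day 0 H3K4me3 peak. In reserve cells, Thbs1, the matrix protein thrombospondin, stood apart with a 7446 bp peak of fold enrichment 71.6 that reached its promoter, ahead of Gm15218 (10.8), Cntnap5b, Hmga2, Col5a1 and Gramd1b (9.60 each). Hmga2, a chromatin architecture factor of proliferating progenitors, was marked in all 3 later libraries, with fold enrichments of 7.07 (day 1), 9.44 (myotubes) and 9.60 (reserve cells). Its peak lay 6256 bp from the nearest day 0 H3K4me3.

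Counts of marked peaks in the hosts with most peaks stand beside 11.7% of all intronic MBD2 peaks in myotubes and 2.21% at day 1. Bcar3 had 5 of the 12 peaks in its GENCODE span under myotube H3K4me3, with fold enrichments of 3.6 to 4.95, and 2 under day 1 H3K4me3. Pde4d, Ltbp1, Runx2 and Lrmda had 1 each in myotubes, Lpp and Rad51b 2 each, and Pvt1 and Ptprm 0.

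By list, 14 of the 73 actin and adhesion peaks, 6 of 24 in fusion and membrane repair genes, 4 of 26 in sarcomere genes, 5 of 37 in TGF-beta, BMP and Hippo genes and 1 of 17 in myogenic regulators lay under myotube H3K4me3, against 12.4% of all peaks in protein-coding genes. The fusion genes were Tmem182, Cdh2, Ncam1, Myof with 2, and Dock5. Tmem182 carried a 1379 bp myotube peak (fold enrichment 5.78) over the third of its MBD2 peaks, which lay 161 bp from day 0 H3K4me3. That myotube peak touched a day 0 H3K4me3 peak. Casq2 carried a myotube peak of 1327 bp (6.30) at a site 98765 bp from any day 0 H3K4me3, and Mylk one of 627 bp (8.55) at 134885 bp. The Mylk one overlapped the MBD2 peak but not its summit. In Eya4, the regulator marked, the myotube H3K4me3 peak was 363 bp long (7.2). Chosen after their values were seen, Itgb5, an integrin subunit of adhesion sites, had 3 of its 6 peaks marked in myotubes (3.94 to 8.31), Actn4, which cross-links actin, had 2 under a single peak of 2649 bp (7.2), and Smad3, the TGF-beta effector, had 2 of 5 (7.2 and 9.97). Peaks in the lists labelled DNA methylation and NuRD, neuronal and adipocyte, 8, 15 and 3 in number, had 0 under myotube H3K4me3.

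MBD2 peaks themselves were rarely called again at the same introns. At day 1, 51 of the 4579 (1.11%, 0.830 to 1.46%) overlapped an MBD2 peak. The myotube list hit 18 of them (0.393%, 0.233 to 0.621%) and the reserve cell list 8 (0.175%, 0.0755 to 0.344%). The background over all 14941 day 0 MBD2 peaks was 2.68%, 1.01% and 0.475%. The later MBD2 lists were 33 to 135 times shorter than that of day 0, so a peak missing from them is not shown to have lost MBD2. Of the 69 sites with any later MBD2 peak, 44 had it at day 1 alone, 15 in myotubes alone, 2 in reserve cells alone, 5 at day 1 and in reserve cells, 2 at day 1 and in myotubes, 1 in both day 5 fractions and 0 in all 3. Day 1 sharing stood at 3.93% in the strongest of the 5 groups by −log10 q and between 0.218% and 0.764% in the other 4.

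The sites called again most often included several of the strongest. Syn3, a synapsin gene, had a fold enrichment of 31.8 at day 0, then 7.17 at day 1 and 6.16 in reserve cells, and Deptor, an inhibitor of mTOR, 18.6, then 8.23 and 7.2. Jarid2, a partner of the Polycomb complex, had 18, then 5.35 and 5.11, and Cmss1, within which Filip1l also lies, 15.7, then 4.86 and 3.53. The Jarid2 and Cmss1 sites had pileups of 102 and 288 over local backgrounds of 4.73 and 17.4 fragments, where the median background was 0.360, and the part of that background in these calls was not tested. Rasgrf1 (8.81) and Agap1 (3.58) were called at day 1 (7.0 and 4.49) and in myotubes (5.63 and 6.43). The Agap1 site also lay under H3K4me3 in all 3 later libraries, with fold enrichments of 4.0, 4.98 and 4.65. Short H3K4me3 peaks of reserve cells also overlapped the Jarid2 site (207 bp, 5.95) and the Cmss1 site (369 bp, 4.64). Of the 8 sites called in reserve cells, 2 were tandem repeats.

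Strong day 0 MBD2 did not go with strong later H3K4me3 at the named sites. Of the peaks of highest fold enrichment named here, those in Rad51b and the predicted gene Gm34471 lay under later H3K4me3. Rad51b had a 264 bp peak of 3.74 in myotubes, and Gm34471 peaks of 3.99 at day 1 and 3.15 in myotubes. The lincRNA Has2os (36.7), Rcan2, an inhibitor of calcineurin (35.3), Lrmda (33.8), Syn3 (31.8), Lurap1l (30.9), Bend6 (30.6) and Gm2582 (30.5) had none. The Rad51b peak (35.3) lay in intron 7, 265299 bp from the nearest day 0 H3K4me3, and was called again for MBD2 at day 1 at 5.44.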

How the data were processed

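The submitters' processing notes name Trim Galore, Bowtie2, SAMtools and MACS2 as tools and mm10 as the build. Neither versions nor settings, nor whether IgG served as control, are given in the sources. A list was deposited per library, 8 in all. The deposited pileup is a signal in fragments, the deposited fold enrichment was read as the ratio (pileup + 1)/(local background + 1), the usual MACS2 form, and 2 columns with damaged names in the file headers were taken, from the order of columns in MACS2 output, for the deposited −log10 values of p and of q. All are the authors' values. Peaks were ranked and filtered within a single list only, and fold enrichments of the same site in several lists are given side by side. Local background was computed as (pileup + 1)/fold − 1.

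Peaks on chromosomes 1 to 19 and X were classified against GENCODE M21 basic genes (mm10), and sequence was read from GRCm38.p6, the same assembly. Overlaps needed at least 1 bp. Background windows of 365 bp, the median width of the intronic peaks made odd, tiled all introns free of promoters and of day 0 H3K4me3, and every 10th window was read for sequence. Named hosts were the 10 with most peaks, the 10 densest and up to 4 per list by highest fold enrichment, and named peaks the 10 strongest, the 6 under the strongest later H3K4me3 of each library and up to 10 called again for MBD2. Some items that these rules select are not reported here. The peaks and lists were chosen with earlier results of these data known. Counting routines were tested on simulated data. Alternatives numbered 10. Python 3.11.15, pandas 2.3.3, scipy 1.17.1 and pysam 0.24.0 were used.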

Additional observations from a re-analysis of the deposited data

How the results depend on the processing

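The 12 main values were recomputed under 10 alternatives, which gave 42 values, of which 29 moved by less than counting error or by less than 1.5 times for counts of peaks and genes. The other 13 follow. With the stronger 50% of the day 0 MBD2 list, the share under day 1 H3K4me3 was 2.88%, shares with later MBD2 were 1.95% at day 1 and 0.354% in reserve cells, and AP-1 elements and GGAATG were present in 24.8% and 17.3% of windows. With equal numbers of H3K4me3 peaks per library, shares were 0.895% at day 1 and 2.99% in myotubes. With the MBD2 summit inside the H3K4me3 peak they were 1.33% and 8.28%, against 0.0596% and 0.588% of windows. Shortening the sequence windows to 50 bases either side of the summit gave 61.9% with CG, 6.68% with CAGCTG, 10.4% with AP-1 elements and 7.73% with GGAATG, since shorter windows hold fewer matches. No paired analysis was possible because each group has 1 library. With a median pileup of 7 fragments and 111 to 452 MBD2 peaks in the later libraries, loss of MBD2 at single sites cannot be told apart from a shallower list.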
